A study of Mus musculus with 2 samples.

Results

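Stmn2 was followed through the stromal cells of the mouse colon and small intestine as 1 gene of 18545 listed in the count tables of the series. The gene was chosen by its measured levels, since earlier results of these data had named it among the genes most unequal between both tissues in fibroblasts and in lymphatic endothelial cells. Its levels are therefore given as a description, without a test. Both groups were healthy, untreated mice with no genetic change named in the labels, and strain, sex, age and number of animals were not given there. The colon was digested for 60 minutes and the small intestine for 45 minutes, cells negative for EpCAM (epithelium) and CD45 (immune cells) were sorted, and about 16000 cells per tissue were loaded for droplet-based RNA sequencing of transcript 3′ ends. Each tissue gave 1 library, so all intervals below are 95% intervals for counting error only, and animal, dissociation and library cannot be told apart from tissue.

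Stmn2 encodes stathmin-2, also known as SCG10, a phosphoprotein of the stathmin family that binds tubulin and promotes the disassembly of microtubules. It is best known from neurons, where it is anchored to membranes by palmitoylation, is concentrated in growth cones, is phosphorylated by JNK kinases and serves axon outgrowth and repair. The cells examined here were of other kinds: fibroblasts, which build the matrix of the gut wall, and the endothelial cells of lymphatic and blood vessels.

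The gene (ENSMUSG00000027500.10) lies on chromosome 3 from 8509360 to 8561606 on the plus strand of GRCm38 in GENCODE release M21, the assembly also called mm10, which the submitters' processing notes name. It has 4 annotated transcripts, of which 1 is protein-coding with 5 exons, and 0 other annotated genes overlap it, so its UMIs (unique molecular identifiers, each marking 1 captured RNA molecule) have no overlapping gene model to be shared with.

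The colon library held 6018 cells with 40684070 UMIs and the small intestinal library 9359 cells with 58134526 UMIs, at medians of 6598 and 5943 UMIs per cell. Cell barcodes shared by both libraries numbered 21. Labels were checked against marker genes. The summed level of 6 lymphatic markers was 22118 CPM (UMIs of the genes per 1000000 UMIs of the type) in colon lymphatic endothelial cells (LECs) and 17706 CPM in small intestinal LECs, and at most 1081 CPM in any other type compared. Small intestinal cells labelled smooth muscle cells (SMCs) held 14808 CPM of smooth muscle markers together with 10026 CPM of markers of CD81- fibroblasts. A single small intestinal cell labelled LEC went against its label, with 334 UMIs of neuron markers, among them 44 of Uchl1, 28 of Tubb3 and 27 of Snap25, and 0 of lymphatic markers. It also held 55 Stmn2 UMIs, and the level, the spread, the tissue ratio and the highest and lowest genes of small intestinal LECs are given with and without it.

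In the colon, Stmn2 was highest in LECs and next in CD81- fibroblasts (FBs), the most abundant fibroblasts of the library. Colon LECs had 387 Stmn2 UMIs in 217 cells, which gave 363 CPM (328 to 401). Colon CD81- FBs had 4488 UMIs in 3631 cells, or 182 CPM (176 to 187). Colon blood endothelial cells (BECs) had 38 UMIs in 53 cells, or 141 CPM (99.7 to 193), an interval that overlapped that of the fibroblasts. SMCs followed with 53.1 CPM (38.1 to 72.0) and trophocytes, the CD81+ fibroblasts, with 14.8 CPM (11.9 to 18.1). SEMFs, the subepithelial PDGFRa-high fibroblasts, had 2.02 CPM (1.13 to 3.33), from 15 UMIs in 1105 cells. Neighbours in this order other than CD81- FBs and BECs had intervals that did not overlap. The 8 colon pericytes held 0 Stmn2 UMIs, with an interval that reached 106 CPM, which is no evidence of absence at that depth.

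In the small intestine the order was different. BECs led with 187 CPM (170 to 207; 411 UMIs in 524 cells), followed by LECs with 52.6 CPM (48.5 to 57.1; 590 UMIs in 2498 cells), or 47.8 CPM (43.8 to 52.0) without the cell that held neuron markers. The other types lay at or under 2.46 CPM: trophocytes at 2.46 CPM (1.73 to 3.39), SMCs at 1.78 CPM (0.579 to 4.16) and SEMFs at 0.307 CPM (0.0371 to 1.11), and each of these intervals overlapped the next. CD81- FBs had 1 Stmn2 UMI in 2823 cells, or 0.0496 CPM (0.00126 to 0.276). Of the 37 UMIs of small intestinal trophocytes, 25 came from 1 cell that also held 472 lymphatic marker UMIs.

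**Figure D1:**
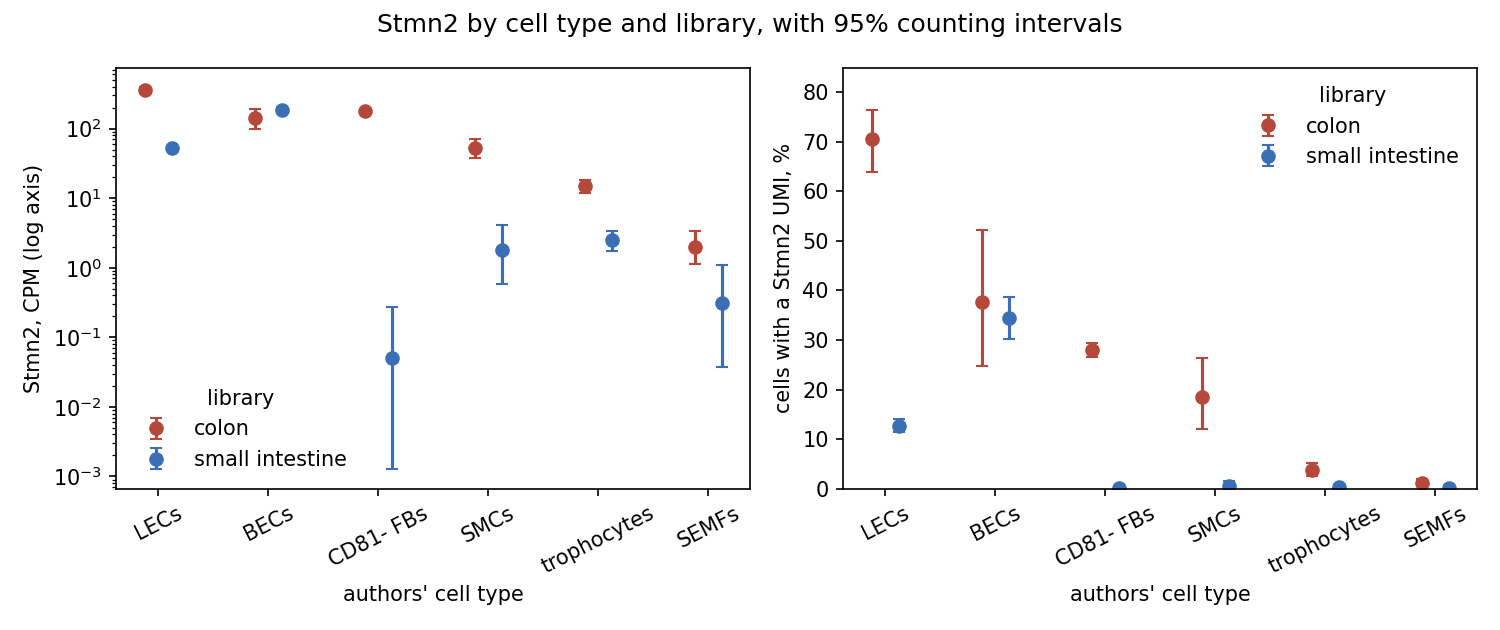
Stmn2 in 6 cell types of each library. Left, CPM on a log axis with exact Poisson intervals; right, the percentage of cells with at least 1 Stmn2 UMI with exact binomial intervals (colon in red, small intestine in blue, points are the values of the single libraries). Colon LECs and CD81- FBs lie above their small intestinal counterparts, whereas the intervals of the BECs overlap.

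The share of cells with at least 1 Stmn2 UMI followed the same order in the colon apart from the exchange of BECs and fibroblasts. It was 70.5% of LECs (64.0 to 76.5, exact Clopper-Pearson), 37.7% of BECs (24.8 to 52.1), 28.0% of CD81- FBs (26.5 to 29.5), 18.4% of SMCs, 3.77% of trophocytes and 1.18% of SEMFs. Median depth in the colon was 6345 UMIs per cell in SEMFs, against 6697 in CD81- FBs and 4545 in LECs. Free RNA in the library was not measured. In the small intestine, 34.4% of BECs and 12.7% of LECs were positive, against 0.0354% of CD81- FBs at a median of 6977 UMIs per cell. After every cell was thinned to 3000 UMIs, 59.0% of 200 colon LECs, 22.0% of 3463 colon CD81- FBs, 10.4% of 1946 small intestinal LECs and 29.6% of 341 small intestinal BECs were positive; 17, 168, 552 and 183 shallower cells were left out. Thinned LECs had the highest share of the 6 colon types, and small intestinal BECs a higher share than LECs.

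Between the tissues, the log2 ratio of colon to small intestine was 11.84 in CD81- FBs (9.36 to 17.14), which ranked Stmn2 7 of 12080 genes once 10 CPM were added to both levels. It was 2.79 in LECs (2.60 to 2.97; rank 19 of 9056), or 2.93 without the cell with neuron markers, and -0.41 in BECs (-0.93 to 0.07), an interval that includes 0. Ratios rested on fewer UMIs in SMCs (4.90, 3.56 to 6.59; 41 against 5 UMIs, with the fibroblast markers in small intestinal SMCs given above), trophocytes (2.58, 2.02 to 3.17) and SEMFs (2.72, 0.61 to 5.89). As background, 1.75% of all genes compared in CD81- FBs, 1.99% in LECs and 2.5% in BECs were beyond 1 on the log2 scale toward the colon with 10 CPM added. These contrasts were used to choose the gene, so nothing is read from its place among them.

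Transcripts of fibroblasts were present in the endothelial cells and were set beside the endothelial values. Adamdec1, a metalloprotease gene of CD81- FBs, stood in colon LECs at 9.31%, in colon BECs at 22.9% and in colon SEMFs at 81.0% of its level in colon CD81- FBs. Stmn2 was higher in colon LECs than in these fibroblasts, and stood at 77.6% of their level in colon BECs and at 1.11% in colon SEMFs. Among colon LECs with no UMI of the fibroblast proteoglycan gene Dcn (121 cells), Stmn2 stood at 419 CPM (366 to 477), against 305 CPM (260 to 357) in the 96 LECs with Dcn UMIs. The 1710 small intestinal LECs with no Dcn UMI had 55.2 CPM (49.98 to 60.9), so the log2 ratio between the tissues' LECs was 2.92 in such cells. In colon BECs, the 31 cells with no Dcn UMI had 167 CPM (102 to 258), while the 20 Stmn2-positive BECs together held 3867 CPM of Dcn against 99.2 CPM in the 33 negative BECs. The part of fibroblast RNA in the colon BEC value was not tested further.

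Within colon CD81- FBs the transcript was concentrated in a minority of cells. Of 3631 cells, 2615 (72.0%) had none, 254 had 1 UMI, 400 had 2 to 4, 257 had 5 to 9 and 105 had 10 or more, with a maximum of 33 in 1 cell. Had the same UMIs been spread evenly over the cells by depth, 1136 cells (31.3%) would be expected at 0 and 0.0481 cells at 10 or more. The 364 cells with the most Stmn2 UMIs held 68.8% of them. The ratio of variance to mean (Fano factor) was 6.86, against a median of 1.36 over 1320 genes of similar mean in the same cells, of which 9 were above Stmn2. The spread over fibroblasts was thus wider than an even distribution of these UMIs would give.

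Lymphatic cells showed a different distribution. In colon LECs, 64 of 217 cells had 0 Stmn2 UMIs where 42.6 were expected from an even spread, 12 had 5 to 9 and 2 had 10 or more, and the Fano factor was 2.27 (median 1.44 over 612 genes of similar mean, 71 above Stmn2). In small intestinal BECs the factor was 2.84 (median 1.59 over 1569 genes). In small intestinal LECs it was 6.95, and 2.06 without the cell with neuron markers, which alone held 9.32% of the Stmn2 UMIs of the type; the largest number in any other LEC was 6 UMIs.

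**Figure D2:**
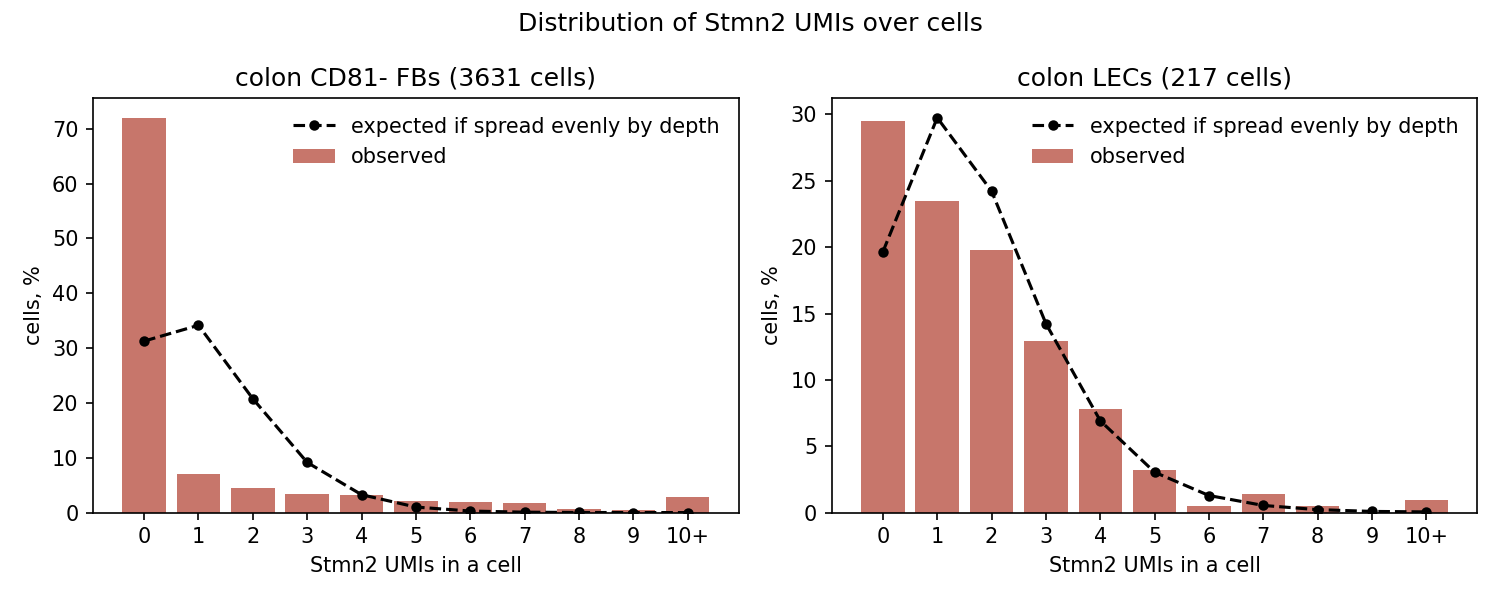
Percentage of colon CD81- FBs (left) and colon LECs (right) by their number of Stmn2 UMIs, with 10+ for 10 or more; bars are observed cells and black points the expectation if the UMIs were spread evenly by depth. In CD81- FBs the 2615 cells at 0 and the 105 cells at 10 or more both exceed the expectation, whereas LECs lie nearer to it.

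Depth moved with the fibroblast values. Colon CD81- FBs were ranked by depth and divided into 4 equal classes. In the shallowest class of colon CD81- FBs (1687 to 5527 UMIs per cell) Stmn2 stood at 129 CPM with 20.7% of cells positive, and in the deepest class (7941 to 20139 UMIs) at 215 CPM with 35.1% positive. In colon LECs the 4 depth classes gave 406, 486, 332 and 293 CPM, with no such order. The colon library held cells of both sexes, and the gene was present in both: CD81- FBs with Y-linked and no Xist UMIs had 197 CPM (187 to 208; 1040 cells) and those with Xist and no Y-linked UMIs 165 CPM (158 to 173; 1615 cells). In LECs the corresponding values were 398 CPM (324 to 485; 53 cells) and 301 CPM (255 to 352; 98 cells). Animal and sex cannot be told apart here.

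Listed markers of neurons stood at similar low levels in colon fibroblasts with and without Stmn2. Of 15 neuron markers, 8 were listed for the colon, among them the pan-neuronal tubulin gene Tubb3, and their summed level was 12.6 CPM in colon CD81- FBs with 2 or more Stmn2 UMIs and 16.6 CPM in those with none. Listed markers of enteric glia (7 of 8) gave 105 and 109 CPM, almost all of it Cryab, a heat shock protein gene that fibroblasts also express. The glial transcription factor gene Sox10 held 0 UMIs in the Stmn2 cells and 5 UMIs in those with none, too few to compare. In colon LECs, 7 of the 8 neuron markers were at 0. The colon fibroblast with the most Stmn2 UMIs (33 of its 8742 UMIs) held 0 neuron marker UMIs and 121 UMIs of pan-fibroblast markers.

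Other members of the stathmin family showed no such pattern. Stmn1, the widely expressed founding member, stood at 12.5 CPM in colon and 8.78 CPM in small intestinal CD81- FBs, and at 5.63 and 17.2 CPM in the LECs of colon and small intestine. Stmn3 was at 0.769 CPM in colon CD81- FBs, and at 6.51 CPM in small intestinal LECs, the label with the neuron-marker cell. Stmn4 was at 1.82 CPM in colon and 6.10 CPM in small intestinal CD81- FBs, and highest in colon trophocytes (12.2 CPM). Within colon CD81- FBs the Stmn2 cells had 15.8 CPM of Stmn1 against 10.99 CPM in cells with none, a log2 ratio of 0.30 with 10 CPM added.

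Colon CD81- FBs were then split into the 762 cells with 2 or more Stmn2 UMIs and the 2615 cells with none, which together hold all but the 254 cells with 1 UMI. Median depth was 7228 UMIs in the Stmn2 cells and 6573 UMIs in those with none. Mitochondrially encoded genes took 2.90% and 3.06% of UMIs. Genes were compared by the log2 ratio of their CPM with 10 CPM added to both sides. Of 7217 genes eligible by level, 41 (0.568%) were beyond 1 toward the Stmn2 cells and 85 (1.18%) beyond 1 in the other direction. Cells were selected on Stmn2, cells of 1 library are not replicates, and these values are a description without a test. All 126 genes beyond 1 had the same sign in Y-linked and in Xist cells taken separately, and of the 41 higher genes 34 were beyond 1 in the Y-linked and 39 in the Xist cells.

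The largest ratio toward the Stmn2 fibroblasts was that of S100a4, a calcium-binding protein gene, at 128 CPM in Stmn2 cells and 21.3 CPM in cells with none (log2 ratio 2.14). Scara5, a ferritin receptor gene, stood at 92.6 against 13.6 CPM (2.12) and was detected in 37.5% against 6.004% of the cells. Rcan2, which encodes a regulator of calcineurin, stood at 227 against 47.6 CPM (2.04) and was detected in 66.9% against 19.2% of the cells. These 3 genes thus marked a larger share of the Stmn2 cells as well as a higher level.

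Next came Sfrp2, a secreted modulator of Wnt signalling (99.8 against 19.3 CPM, 1.91), Hapln1, a link protein of hyaluronan (156 against 35.3 CPM, 1.87), and Pianp, a ligand of the immune receptor PILRA (101 against 21.2 CPM, 1.83). The transcription factor gene Osr1 stood at 198 against 51.5 CPM (1.76), and Mfap5, a component of elastic microfibrils, at 511 against 169 CPM (1.54). The remaining genes of the highest 12 were Gngt2, a G protein subunit gene (1.497), Tubb2b, a beta-tubulin gene (1.49), Col8a1, a short-chain collagen gene (1.49), and Aldh3a1, an aldehyde dehydrogenase gene (1.48), and the gene just outside was Myo16 (1.48). The protein product of Tubb2b belongs to the tubulins on which stathmins act, but it was 1 tubulin among several: Tuba1a had a ratio of 0.03, Tubb2a 0.42 and Tubb5 0.29.

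Genes lowest in the Stmn2 fibroblasts differed by more. Kcnk2, a potassium channel gene, stood at 24.8 CPM in Stmn2 cells and 233 CPM in cells with none (-2.80), the chemokine gene Cxcl14 at 21.4 against 194 CPM (-2.70) and the matrix glycoprotein gene Tnc at 110 against 684 CPM (-2.53). Tnc was detected in 15.6% of the Stmn2 cells and in 70.1% of the others. Further down lay Ccdc3 (-2.24), the semaphorin receptor gene Plxna4 (-2.20), Hpse2, which encodes a heparan sulfate-binding relative of heparanase (-2.19), the interferon-induced GTPase gene Iigp1 (-2.03) and the carboxylesterase gene Ces1d (-2.00). The last 4 were the MHC class I gene H2-Q7 (-1.93), Rgs5, a regulator of G protein signalling (-1.92), the interferon-induced chemokine gene Cxcl10 (-1.88) and the thrombospondin gene Thbs1 (-1.82), with Sgcd just outside (-1.82). Among cells thinned to 3000 UMIs before the split, the ratio was -3.19 for Kcnk2, -2.88 for Tnc and -2.61 for Cxcl10.

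**Figure D3:**
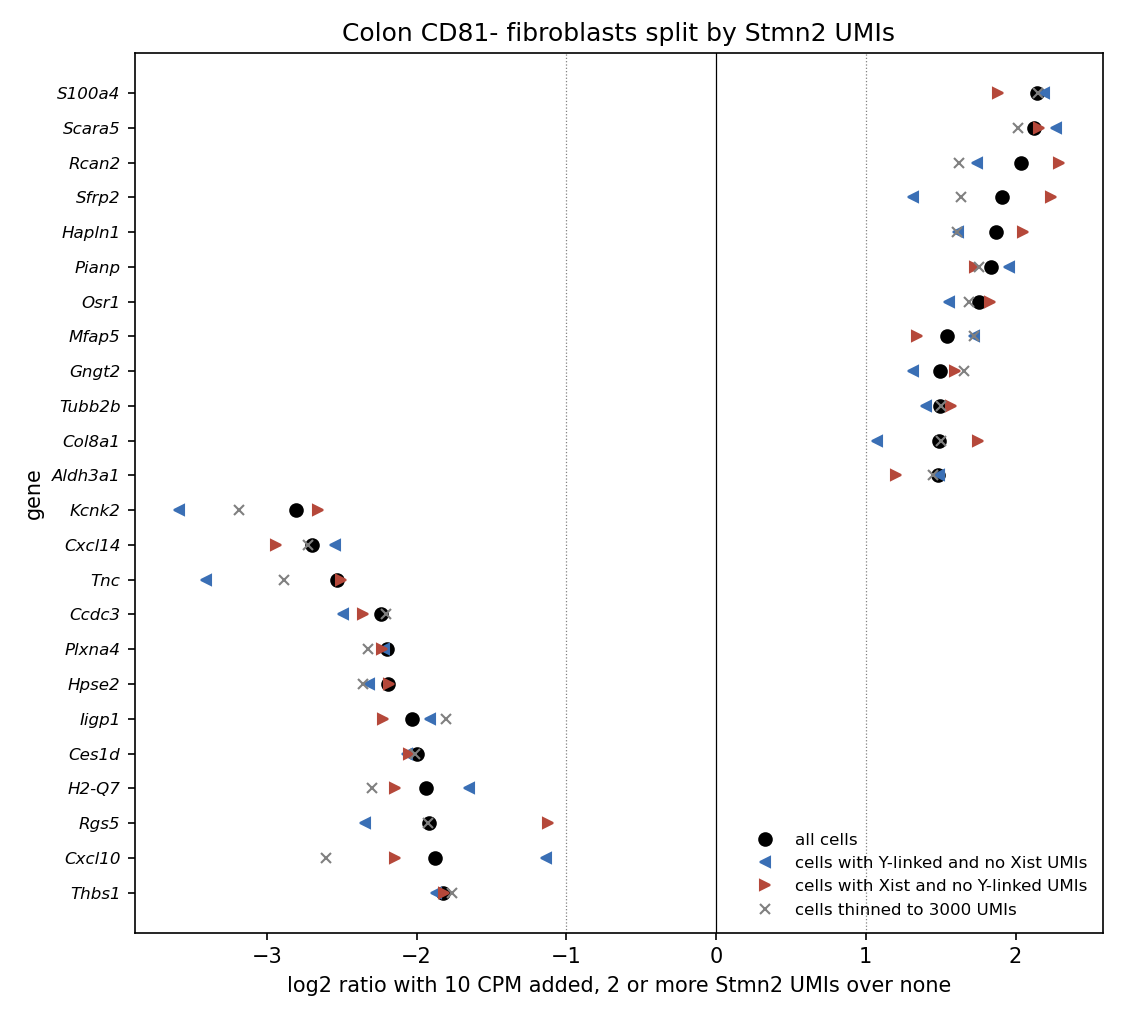
Log2 ratio with 10 CPM added between colon CD81- FBs with 2 or more Stmn2 UMIs and those with none, for the 12 highest and 12 lowest eligible genes. Black points are all cells, blue and red triangles the cells with Y-linked or with Xist UMIs only, grey crosses cells thinned to 3000 UMIs; dotted lines mark -1 and 1. The genes were picked among those with the same sign in Y-linked and in Xist cells, which fixed their side of 0 in these series. All 24 genes also keep their side of 0 in the thinned cells, and all markers lie beyond 1.

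Among the fixed lists, the markers of CD81- FBs themselves divided. Adamdec1 stood at 2335 CPM in Stmn2 cells against 6932 CPM in cells with none (-1.57) and Agt, the angiotensinogen gene, at 25.5 against 76.3 CPM (-1.28). Pcolce2, an enhancer of procollagen processing, lay in the opposite direction at 35.8 against 8.80 CPM (1.28). Pan-fibroblast markers were present on both sides, with 0 of 6 beyond 1 and a median of 0.09; Dcn stood at 9838 against 7837 CPM. Stmn2 cells were therefore fibroblasts by these markers, with a lower level of Adamdec1.

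Over all 7217 eligible genes, 3409 ratios were positive and 3808 negative, with a median of -0.01. Of these genes, 0.568% were beyond 1 higher and 1.18% beyond 1 lower in Stmn2 cells. Of 29 genes for secreted signals, 23 were eligible, 3 with a positive and 20 with a negative ratio (median -0.30). Among the 23, 4 were beyond 1, all lower in Stmn2 cells. These were the eosinophil chemokine gene Ccl11 (204 against 640 CPM, -1.61), the alarmin gene Il33 (9.38 against 38.2 CPM, -1.31), the neuregulin gene Nrg1 (19.5 against 55.5 CPM, -1.15) and the Wnt antagonist gene Sfrp1 (487 against 1084 CPM, -1.14). The 3 positive ratios were those of Wnt4 (0.30), Wnt5b (0.32) and the fibroblast growth factor gene Fgf7 (0.18).

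Trophocyte markers had 0 of 5 eligible members beyond 1 (median 0.38), with 3 positive and 2 negative ratios. The sialomucin gene Cd34 stood at 488 against 257 CPM (0.90), whereas the complement gene C3 stood at 95.2 against 170 CPM (-0.77) and Grem1, a BMP antagonist gene, at 230 against 379 CPM (-0.69). SEMF markers were negative in 7 of 7 (median -0.25), with Nrg1 as the member beyond 1. In Y-linked cells taken alone, F3 (0.04), Bmp7 (0.08) and Wnt5a (0.16) were positive and the others negative. The 12 immediate early genes, which respond to dissociation as well as to signals, had a median of -0.29 with 2 positive and 10 negative ratios, and Fos stood at 1136 against 1564 CPM.

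Genes that act with stathmin-2 in neurons were looked at next. Of 19 genes of growth cones and microtubules, 18 were listed and 11 eligible, 8 with a positive and 3 with a negative ratio (median 0.26), and Tubb2b was the 1 beyond 1. Dclk1 and Dpysl3, both microtubule-associated, had ratios of 0.38 and 0.36. The growth cone gene Gap43 had 0 UMIs in the Stmn2 cells and 1 UMI in those with none, too few to compare. The 5 eligible genes of the JNK pathway had a median of 0.07, with Mapk8 at 25.0 against 23.5 CPM. Genes tied to STMN2 RNA in other work differed little, with Tardbp at 29.4 against 34.3 CPM and Rest, a repressor of neuronal genes, at 36.5 against 37.0 CPM; Nmnat2, an axon survival factor gene, was at 30.1 against 14.0 CPM (0.74). Of 9 eligible neural adhesion genes, 5 were positive and 4 negative, and Opcml was the 1 beyond 1 (349 against 121 CPM, 1.46). Adam23 and Frmpd4, which the same fibroblasts also express, had ratios of -0.05 and 0.10, so cells with and without Stmn2 UMIs had nearly the same levels of both.

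The 254 fibroblasts with 1 Stmn2 UMI took no part in choosing these genes, and the summed level of the 12 higher genes in them was 1204 CPM. This lay between the 454 CPM of fibroblasts with none and the 1797 CPM of cells with 2 or more, a difference that the choice of the genes fixed. Summed over the 12 lower genes the value was 801 CPM in the cells with 1 UMI, between 2311 and 389 CPM. In other cells, 9 of the 12 higher genes stood higher in colon trophocytes than in CD81- FBs with no Stmn2 UMI. Of the 12, 4 also exceeded the Stmn2 cells. The matching share of all eligible genes was not computed, so nothing is read from these counts. Scara5 was at 196 CPM and Mfap5 at 774 CPM in trophocytes, whereas Hapln1 was at 1.73 CPM. In small intestinal CD81- FBs, which lack Stmn2 but for 1 UMI, 8 of the 11 higher genes listed there were lower than in all colon CD81- FBs, which include the Stmn2 cells the genes were picked in. Against the colon cells with no Stmn2 UMI the count was 6 of 11, beside 32.6% of all 7210 eligible genes listed in both tissues. Sfrp2 was at 0.149 CPM in the small intestine against 19.3 CPM in those colon cells, and Hapln1 at 1.84 against 35.3 CPM, whereas 5 went the other way, among them Mfap5 (380 against 169 CPM), Col8a1 (76.7 against 40.4 CPM) and Scara5 (37.8 against 13.6 CPM). Of the 12 lower genes, 6 were higher and 6 lower there than in the colon cells with none (67.4% of all eligible genes were higher), and Hpse2 was at 3554 against 112 CPM.

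Sub-clusters of colon CD81- FBs, made without Stmn2 among the genes and chosen as a view after the data were seen, placed most of the transcript together. Sub-cluster 1 (1261 cells, 34.7% of the label) held 81.8% of the Stmn2 UMIs, at 414 CPM (400 to 427) with 62.5% of cells positive; it was led by Sfrp2, Scara5, Rcan2 and Osr1. Sub-cluster 5 (274 cells, led by Pi16, Tagln and Acta2) had 338 CPM (306 to 373) with 35.4% positive at a median of 3857 UMIs per cell. Sub-cluster 3 (804 cells, led by Cxcl14 and Hpse2) had 7.65 CPM (5.54 to 10.3) with 2.24% positive, and sub-cluster 2 (859 cells) 22.6 CPM (18.9 to 26.7). Sub-cluster 1 contained 435 Y-linked and 505 Xist cells, so it did not belong to 1 sex. The sub-clusters were given no cell type names, and since Stmn2 and the genes that lead them come from the same cells, these values are a description.

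**Figure D4:**
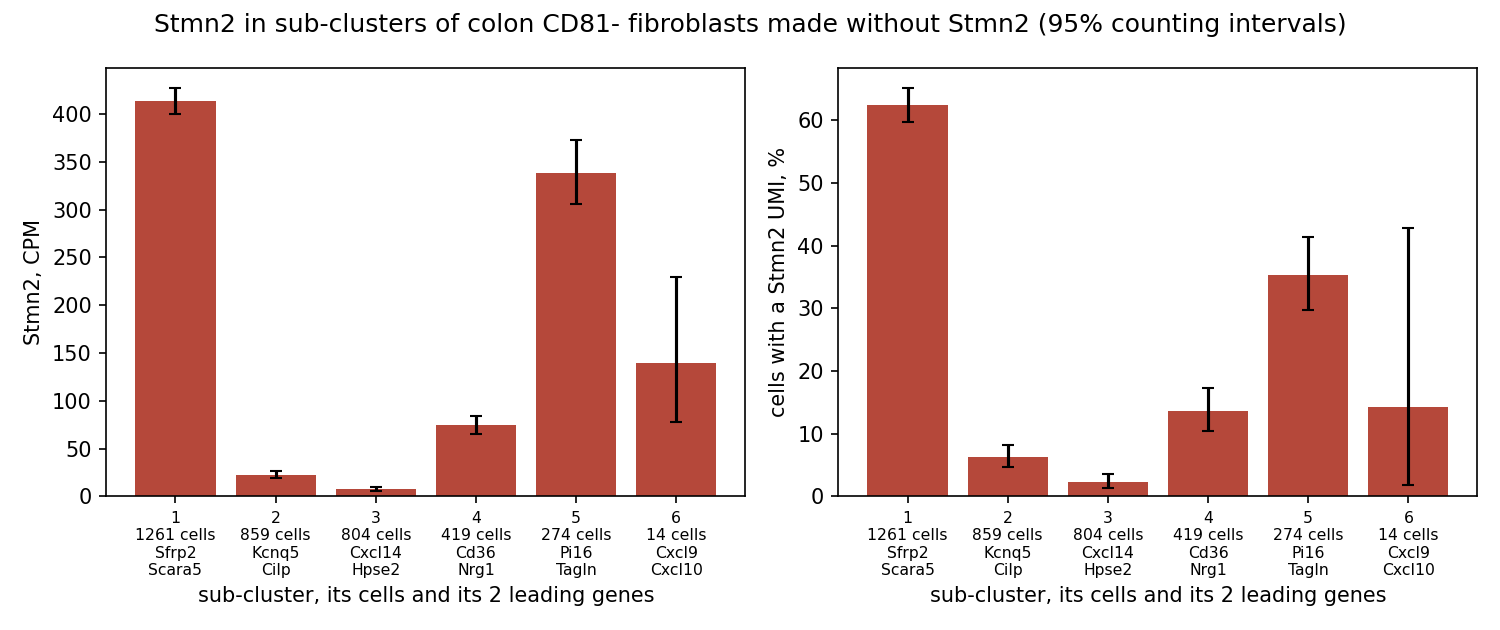
Stmn2 in 6 sub-clusters of colon CD81- FBs made without Stmn2: left, CPM with exact Poisson intervals; right, percentage of cells with a Stmn2 UMI with exact binomial intervals, and below each bar its number of cells and its 2 leading genes. Sub-clusters 1 and 5 stand at 414 and 338 CPM, the others of more than 14 cells at or below 74.3 CPM.

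Lymphatic cells were split in the same way, and no eligible marker of lymphatic identity, capillaries or collectors was beyond 1 in either tissue. Eligible in the colon were 6 of 6 lymphatic markers, 4 of 6 capillary genes and 2 of 7 collector and valve genes. In the small intestine the numbers were 6 of 6, 5 of 6 and 5 of 7. In the colon, 102 LECs with 2 or more UMIs were compared with 64 with none, and 18 of 2603 eligible genes (0.692%) were beyond 1 higher and 19 (0.73%) lower. None of 6 lymphatic markers was beyond 1: Prox1, the master transcription factor gene of lymphatic identity, stood at 453 against 515 CPM, and Lyve1, the hyaluronan receptor gene of lymphatic capillaries, at 3464 against 3613 CPM. The genes highest in colon LECs with Stmn2 were the fibroblast matrix genes Fbln1 (231 against 66.6 CPM, 1.66) and Col3a1 (455 against 154 CPM, 1.501), then Bmp5 (1.34), Ecm1 (1.33) and Clec3b (1.24). Without the cell that held most UMIs of the gene, the ratios were 1.38, 1.31, 0.97, 1.01 and 0.94 in that order, so Bmp5 and Clec3b were no longer beyond 1. Pan-fibroblast markers summed to 1745 CPM in these cells and 796 CPM in LECs with none; their part in these ratios was not tested. Lowest was Nts, the neurotensin gene (23.5 against 214 CPM, -2.74, or -2.38 without its largest cell). Xrn2, Rrm2b and Clca3a1 were also among the lowest 5, at -1.27, -1.20 and -1.19, or -1.06, -1.09 and -0.88 without the largest cell of each.

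In the small intestine, 135 LECs with 2 or more UMIs were compared with 2180 with none, and 7 of 6292 eligible genes (0.111%) were higher and 17 (0.27%) lower. The synuclein gene Sncg led at 2.47, but 83 of its 107 UMIs came from the cell with neuron markers, and its ratio was 0.62 without that cell; Hoxa5 (1.27) likewise was at -0.13. Without the neuron-marker cell the counts were 4 higher and 20 lower of 6256 genes, and Nts led with 1.71, followed by Pglyrp1, a peptidoglycan recognition protein gene, with 1.11. Nts stood at 165 CPM in small intestinal LECs with Stmn2 and 44.7 CPM in those with none, the opposite direction to the colon. Cyfip2 (1.20) and Slc8a1, a sodium-calcium exchanger gene (1.16), were the remaining genes of the highest 5, and without the neuron-marker cell they stood at 0.97 and 1.08. The lowest 5 were Sparc (-2.27), Gsn (-2.18), Dcn (-2.04), Adamdec1 (-1.85) and Zmat4 (-1.61), mostly genes of fibroblasts. Without the neuron-marker cell they stood at -2.25, -2.15, -2.002, -1.82 and -1.59. Their levels differed more than their detection, apart from Zmat4 (3.70% against 11.1% of cells). Dcn was detected in 35.6% of the Stmn2 cells against 31.1% of those with none, Adamdec1 in 11.1% against 10.7%, Gsn in 16.3% against 17.8% and Sparc in 9.63% against 11.9%. In these LECs, too, 0 of 6 lymphatic markers were beyond 1, with Prox1 at 754 against 817 CPM.

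Blood endothelial cells of the small intestine, the type with most Stmn2 there, showed a wider split. This view and the lists of arterial, venous and capillary genes were chosen after the data were seen. Of 5321 eligible genes, 85 (1.6%) were beyond 1 higher and 95 (1.79%) lower in the 101 BECs with 2 or more Stmn2 UMIs than in the 344 with none. Of 11 arterial genes, 7 were beyond 1 and 10 positive, with a median of 1.13 against -0.01 over all eligible genes. The gap junction gene Gja5, found in arteries, stood at 123 against 15.9 CPM (2.36) and the semaphorin gene Sema3g at 211 against 42.0 CPM (2.09). Fbln5, an elastic fibre gene, was detected in 88.1% against 39.8% of the cells (1.56), and the Notch target Hey1 in 42.6% against 15.1% (1.13).

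Capillary genes lay in the opposite direction. All 7 were negative with a median of -0.77, and 3 were beyond 1: Rgcc (30.2 against 213 CPM, -2.47), Car4, a membrane-bound carbonic anhydrase gene (4.31 against 67.3 CPM, -2.43), and the apelin receptor gene Aplnr (12.9 against 77.5 CPM, -1.93). Of 7 venous genes, 0 were beyond 1 and 2 were positive (median -0.28), with the venous transcription factor gene Nr2f2 at 297 against 403 CPM. The highest 10 genes were Mgp, the matrix Gla protein gene (1613 against 272 CPM, 2.53), Apba1, Sh3kbp1, Htra1, Nebl, Gja5, Kcne3, Pcsk5, Sema3g and Efna5, between 2.51 and 2.06 after Mgp. Dcn was also higher in these BECs (394 against 135 CPM, 1.48), as were lymphatic markers (1534 against 825 CPM in sum), and their part was not tested. In the colon, the finer labels gave 378 CPM (152 to 779) in 4 arterial, 208 CPM (67.6 to 486) in 4 venous and 114 CPM (74.8 to 168) in 45 capillary cells, with overlapping intervals.

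**Figure D5:**
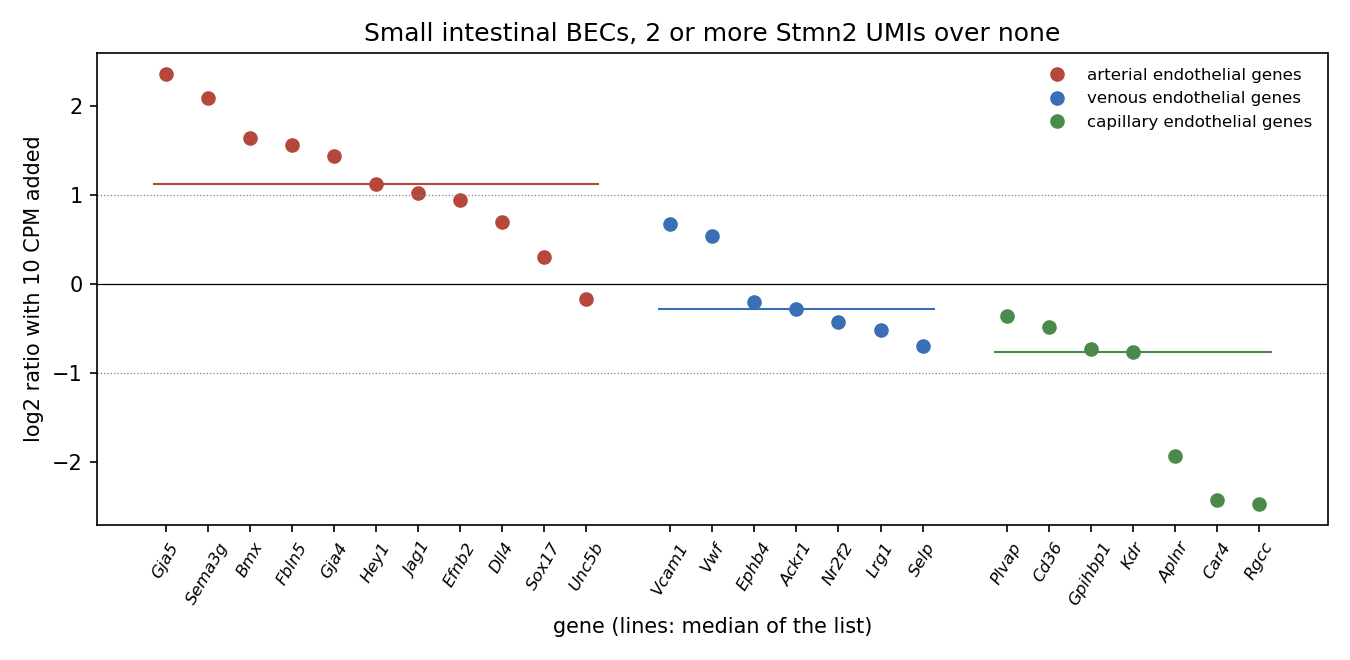
Log2 ratio with 10 CPM added between small intestinal BECs with 2 or more Stmn2 UMIs (101 cells) and with none (344 cells), for 11 arterial (red), 7 venous (blue) and 7 capillary (green) genes; horizontal lines are the medians of 1.13, -0.28 and -0.77 and dotted lines mark -1 and 1. Of the arterial genes 10 lie above 0, and all capillary genes lie below it.

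Across the 12 combinations of type and library, the 10 genes whose log2(CPM + 10) was most alike to that of Stmn2, among 9429 genes, included Plcd3 (Pearson r = 0.87), Piezo1 (0.86), Ninj1 (0.85), 2510002D24Rik (0.85), Plaur (0.82), Plec (0.82), Anxa7 (0.81), Gsg1 (0.81) and Fxyd5 (0.80). The points share 2 libraries and their depth, and the coefficients are a description. Their ranges were narrower in the examples given here: Plcd3, a phospholipase gene, ran from 3.46 CPM in small intestinal trophocytes to 41.3 CPM in colon LECs, and Piezo1, a mechanosensitive channel gene, from 21.3 to 161 CPM.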

How the data were processed

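Single-cell RNA of sorted stromal cells was measured in 1 colon and 1 small intestinal library. Per the submitters' processing notes, Cell Ranger 7.1.0, Seurat 4 and mm10 were used. The authors deposited raw UMI counts per gene and cell, normalized values on a natural log scale, and cell type labels. Counts were used for all values, and the deposited natural log values only for an alternative. Arterial, venous and capillary labels of the colon were pooled as BECs. The number of columns of other samples was 0.

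UMIs were summed per type and given as CPM with exact Poisson intervals. Shares have exact Clopper-Pearson intervals, and ratios conditional binomial ones, all at 95% and for counting error only. Where a count was 0, the floor was set at 3 counts. No test was run, because each tissue had 1 library and cells are not replicates.

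For the split of colon CD81- FBs, genes needed at least 100 UMIs in both sides together (50 in endothelial splits) and detection in at least 10% of cells of the higher side. Stmn2 itself, Y-linked genes, Xist, Tsix and genes for immunoglobulins, haemoglobins, ribosomal proteins and mitochondrially encoded products were left out. Those named are the 12 highest and 12 lowest with the same sign in Y-linked and Xist cells, 5 and 5 for LECs, 10 for BECs, the 10 most alike to Stmn2 over types, among genes with at least 20 CPM in 1 type, and members of the gene lists; 2 of these genes are not reported here. Members and lists were chosen with earlier results of these data known.

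A type entered the comparison with 50 cells or more in each of both libraries. The split was tested on simulated data with 200 of 16381 genes changed. Of the 100 genes changed by 4-fold, 100.0% were recovered beyond 1, against 0 of 7156 unchanged eligible genes. Intervals held the true ratio for 96.0% of the changed genes. The simulated counts were Poisson draws from a pooled profile scaled by depth, without further spread between cells. They therefore do not show how the split or its intervals perform on cells as uneven as these. Doublets were kept. Scrublet in scanpy 1.11.5 marked 1 colon cell (0.0166%), too few for the call to have worked, and 85 small intestinal cells (0.908%). Any earlier removal of doublets is not given in the sources used here. Alternatives covered the weight and depth of cells, doublet scores, the total, sex, the minimum UMIs, the pseudocount and the low-level filter. Python 3.11.15, numpy 2.4.6, scipy 1.17.1 and pandas 2.3.3 were used. Sub-clusters came from scanpy's Leiden method.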

Additional observations from a re-analysis of the deposited data

Results flagged for a closer look

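In the LECs, 5 genes named in the splits by Stmn2 were beyond 1 in opposite directions in the colon and the small intestine. The log2 ratio (2 or more Stmn2 UMIs over none, 10 CPM added) in colon and in small intestinal LECs was -2.74 and 1.68 for Nts. For fibroblast transcripts it was 1.501 and -1.44 for Col3a1, 1.08 and -2.04 for Dcn, 1.66 and -1.91 for Fbln1, and 1.01 and -2.18 for Gsn. Detection in small intestinal LECs moved little. Dcn was found in 35.6% of the Stmn2 cells and 31.1% of those with none, and Gsn in 16.3% and 17.8%. Of the 4415 Dcn UMIs in LECs with none, 419 came from 1 cell. Each tissue is 1 library, so the difference between them was not tested. The genes were picked for large ratios, and 64 colon LECs made up the side without Stmn2.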

How the results depend on the processing

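Stmn2 in colon CD81- FBs (182 CPM) was 175 CPM as the mean of the cells' own CPM, 176 CPM after thinning to 3000 UMIs, 219 CPM with mitochondrial and ribosomal genes out of the total, 197 CPM in Y-linked and 165 CPM in Xist cells. Its positive share (28.0%) was 22.0% thinned, 30.0% in Y-linked cells and 20.99% with at least 2 UMIs. In colon LECs (363 CPM, 70.5%) the level was 424 CPM with those genes out of the total, 301 CPM in Xist cells and 419 CPM in cells with no Dcn UMI, and the share 59.0% thinned and 47.0% with at least 2 UMIs. The fibroblast ratio was at least 8.89 after thinning, where the small intestine had 0 UMIs. The LEC ratio was 2.51 with colon Xist cells (152 UMIs) set against all small intestinal LECs (590 UMIs). Xist is not listed for the small intestine, so its cells could not be divided by sex in the same way. As a difference of mean natural log values, another scale, these contrasts were 0.493 and 1.00. With a pseudocount of 1 CPM, 70 genes were higher and 129 lower in the split (41 and 85), and with 50 CPM 16 and 26. Hoxa5 in small intestinal LECs went from 1.27 to -0.13 without the neuron-marker cell. No Stmn2 contrast between the tissues reversed in the alternatives run. Members of the gene lists were also taken in Y-linked, Xist and thinned cells, and some of their small ratios did reverse. Frmpd4 (0.10) was at -0.07 in Y-linked and -0.17 in thinned cells, and Stmn1 (0.30) at -0.04 and -0.02. All 24 named genes kept their direction in 13 alternatives each. Their choice fixed the direction in Y-linked and in Xist cells, and the pseudocounts and the minimum UMIs cannot change it. Of the 24 genes, 19 were beyond 1 in every alternative, and Gngt2, Tubb2b, Aldh3a1, Plxna4 and Rgs5 were not. The alternatives without Dcn UMIs, without the neuron-marker cell, without the cell richest in a gene, and those for BECs were chosen after seeing the data. No paired analysis was possible because each tissue has 1 library. Few Stmn2 UMIs limit the precision of ratios to small intestinal CD81- FBs (1 UMI in 2823 cells, with an interval that ends at 0.276 CPM). The same holds for the values of colon BECs (38 UMIs in 53 cells).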

Other observations

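Colon trophocytes held 94 Stmn2 UMIs in 33 cells, of which 66 lay in Xist cells (21.2 CPM, 16.4 to 27.0) and 13 in Y-linked cells (6.21 CPM, 3.31 to 10.6), and 15 came from 1 cell. In colon SMCs the same groups had 74.9 CPM (43.6 to 120) and 62.9 CPM (37.9 to 98.2), with overlapping intervals. Colon SMCs with a Stmn2 UMI (23 cells) held 651 CPM of Adamdec1 and those with none 1383 CPM. Dcn went the other way, at 1703.5 against 1521.2 CPM, as did the summed pan-fibroblast markers, at 7062 against 5737 CPM. The part of fibroblast RNA in colon SMCs was not tested.

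The 14 cells of colon CD81- FBs led by the interferon-induced chemokine genes Cxcl9 and Cxcl10 had 15 Stmn2 UMIs in all, or 139 CPM (78.0 to 230). Cells labelled as proliferating were too few to describe, with 3 Stmn2 UMIs in 1 of 4 colon cells and 1 UMI in 24 small intestinal cells.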
